A study of Mus musculus with 15 samples.

Results

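Genes of cellular sterol export were described across 5 groups of sorted mouse glioma and neurosphere cells on 15 arrays. The members were Abca1, Abca2, Abca3, Abcg1, Apoe, Nr1h2, Nr1h3 and Mylip, and every probe set whose annotated symbol was one of these 8 names was taken. This gave 12 probe sets of 7 genes, out of 45037 probe sets and of 18193 genes that a probe set with a single symbol named. Nr1h2 had none under that rule and was not analysed here. Of the 12, 7 passed a filter on low signal (above the median of their own array on at least 3 arrays) and were tested, and the other 5 are given as values. The set was proposed with the levels of these genes in the 5 groups already known, so the tests below describe the data and are no independent evidence.

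Side population (SP) cells are cells that exclude a DNA dye through ABC transporters and are sorted from the non-side population (non-SP) that retains it. The groups were 3447 SP, 3447 non-SP, 4346 SP, neurosphere SP and neurosphere non-SP, with 3 arrays each. Lines 3447 and 4346 were tumorspheres, floating cultures, each from a brain tumour of an S100beta-verbB mouse that was p53-/- or p53+/-. Each line therefore stands for 1 tumour. It was grafted into the brains of 3 NOD.Cg-Prkdc<scid>Il2rg<tm1Wjl>/SzJ hosts, which lack lymphocytes and natural killer cells but keep myeloid cells, and then cultured again and sorted. The neurospheres were untransformed cultures of 3 other mice of these genotypes, although another passage of the study description has them injected into mice as well. All 5 groups thus carried the S100beta-verbB transgene, which drives an oncogenic form of the epidermal growth factor receptor from a glial promoter, and an altered p53 gene, and none was wild type. Which p53 genotype a line had, and the ages, are not given in the sources used here.

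Cells cannot break down the sterol ring, so excess cholesterol is exported. Abca1 loads it onto lipid-poor apolipoproteins such as Apoe, and Abcg1 passes it to particles that are already formed. The liver X receptors (LXR), encoded by Nr1h3 (LXR alpha) and Nr1h2 (LXR beta), bind oxysterols, pair with retinoid X receptors and switch on Abca1, Abcg1, Apoe and Mylip. In brain, astrocytes are the main source of Apoe, and astrocytes and microglia export cholesterol to neurons.

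The promoters of the 2 members that were lower in 3447 SP than in neurosphere SP cells are shown to set the letters of both beside the values that follow. Both are RefSeq windows of 300 bases on the minus strand of build GRCm38.p6, with 250 bases before the transcription start and 50 after it, chr4:53159846-53160145 for Abca1 and chr7:19699139-19699438 for Apoe. Capitals mark motif matches.
Abca1: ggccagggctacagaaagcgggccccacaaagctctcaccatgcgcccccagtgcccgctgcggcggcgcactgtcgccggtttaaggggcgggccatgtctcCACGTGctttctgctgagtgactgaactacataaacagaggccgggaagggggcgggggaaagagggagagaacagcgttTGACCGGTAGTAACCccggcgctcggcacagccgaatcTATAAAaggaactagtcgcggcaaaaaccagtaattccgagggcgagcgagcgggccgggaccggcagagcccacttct
Apoe: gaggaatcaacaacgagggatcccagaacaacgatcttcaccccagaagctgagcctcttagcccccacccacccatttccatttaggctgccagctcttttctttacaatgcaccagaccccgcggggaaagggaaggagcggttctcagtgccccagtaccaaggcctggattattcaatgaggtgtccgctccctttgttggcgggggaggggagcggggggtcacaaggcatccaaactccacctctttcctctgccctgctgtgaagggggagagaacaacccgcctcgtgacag

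The Abca1 window holds an E-box, CACGTG, which begins 147 bases before the start and occurs in 7.15% of 32851 mouse windows. It also holds TATAAA 29 bases before the start, which 13.6% of windows have. A pair of core sequences of the kind bound by nuclear receptors, GGTNA and a second GGTNA 5 bases after it, lies on its reverse strand from 67 bases before the start and occurs in 0.718% of windows. That pattern was chosen after the Abca1 window had been seen, and after a stricter pair with a spacing of 4 bases had matched no member window. Counted between units of 6 letters, each core with the base before it, the Abca1 stretch has a spacing of 4 bases as well. Both strands were searched, and the motifs do not overlap in this window. The single core AGGTCA, found in 16.3% of windows, was in 0 of the 10 windows of 7 member genes, and the Apoe window printed here held none of the 4 patterns. TATAAA was also in another Apoe window and in a Mylip window. These are matches of letters and say nothing of binding.

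Array medians ran from 40.0 to 89.3 signal units, and the highest was that of array 3 of the 3447 SP. The 3' end of actin outshone its 5' end 5.30-fold on array 3 of the 4346 SP, and 2.49-fold to 3.29-fold elsewhere. For the comparisons given, calls that were lost or gained without either of these arrays are stated beside the genes named. Stem cell markers, read as a check of the labels, were present but in part lower in tumour cells. Of 6 tested, 3 were lower in 3447 SP, 4 in 4346 SP and 2 in 3447 non-SP than in neurosphere cells, and 0 were higher. Over all probe sets tested, 7.17%, 9.64% and 7.00% were lower in these comparisons and 8.01%, 10.2% and 8.16% higher. Sox2, a neural stem cell transcription factor, ran from 5656 to 7326 signal units in tumour cells and from 5726 to 7262 in neurosphere cells. Nes, the stem cell filament nestin, was present throughout at 336 to 569.9 units in tumour cells, against 1145 to 2079 in neurosphere cells. Prom1, the surface marker CD133, had 0.829 to 66.1 units in tumour cells, against 116 to 1281 in neurosphere cells.

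Abca1, the transporter that loads apolipoproteins, was lower in tumour than in neurosphere cells and lower in 4346 SP than in 3447 SP cells. Its brightest probe set, 1421840_at, gave signals of 490.3, 705 and 395 in the 3447 SP arrays. The 3447 non-SP arrays had 89.7, 238 and 172. The 4346 SP arrays had 44.6, 149 and 128. All 9 tumour arrays lay below all 3 neurosphere SP arrays, at 1190.25, 1426 and 931. The neurosphere non-SP arrays, at 792, 417 and 556, overlapped those of the 3447 SP. In order of mean signal the groups were neurosphere SP (1182 ± 248), neurosphere non-SP (588 ± 189), 3447 SP (530.2 ± 159), 3447 non-SP (167 ± 74.4) and 4346 SP (107 ± 55.1; SD, n = 3 each). Of the neighbours in this order, only neurosphere SP and non-SP, and 3447 SP and non-SP, had arrays that did not overlap.

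Differences were tested with limma over all 26256 probe sets past the filter, on quantile-normalized log2(signal + 16), with Benjamini-Hochberg adjusted p-values and a threshold of 0.05. They are given as log2 difference ± SE and understate changes of dim probe sets. Abca1 fell by 1.21 ± 0.37 in 3447 SP against neurosphere SP cells (adjusted p = 0.0366). It fell by 3.28 ± 0.37 in 4346 SP against neurosphere SP cells (adjusted p = 1.22e-05). In 3447 non-SP against neurosphere non-SP cells it fell by 1.70 ± 0.37 (adjusted p = 0.00456). In 3447 SP against 4346 SP cells it was higher by 2.07 ± 0.37 (adjusted p = 0.00929).

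The first of these calls was the least steady. It was lost without array 1 or 3 of the 3447 SP or array 1 or 2 of the neurosphere SP (adjusted p up to 0.136). It was also lost in 6 of 12 other settings, among them no normalization between arrays (adjusted p = 0.0639) and no filter (adjusted p = 0.0556). An added constant of 1 (adjusted p = 0.0532), array weights (adjusted p = 0.0608) and the mean of a gene's probe sets (adjusted p = 0.108) lost it too. Its difference without array 3 of the 3447 SP was -1.03. The call between the lines was lost without array 2 of the 3447 SP (1.85, adjusted p = 0.0583). The other 2 calls held in every leave-out. With the mean of a gene's probe sets, that of the 3447 non-SP was lost (-0.83, adjusted p = 0.0725), as was that between the lines (0.93, adjusted p = 0.160). A second Abca1 probe set, 1421839_at, was far dimmer and ran the same way but passed in none of the 3 comparisons with neurospheres. It had 29.5, 29.6 and 69.8 in 3447 SP arrays against 82.4, 81.4 and 39.7 in neurosphere SP arrays, which overlap (log2 difference -0.73 ± 0.42, adjusted p = 0.272). In 4346 SP arrays it had 20.5, 21.4 and 12.4, all below those of the neurosphere SP (-1.06 ± 0.42, adjusted p = 0.0856). That comparison passed with no normalization between arrays (adjusted p = 0.0495) and without array 3 of the neurosphere SP (adjusted p = 0.0454). The dimmest Abca1 probe set, 1450392_at, stayed between 1.28 and 50.6 on all arrays and was not tested.

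**Figure D1:**
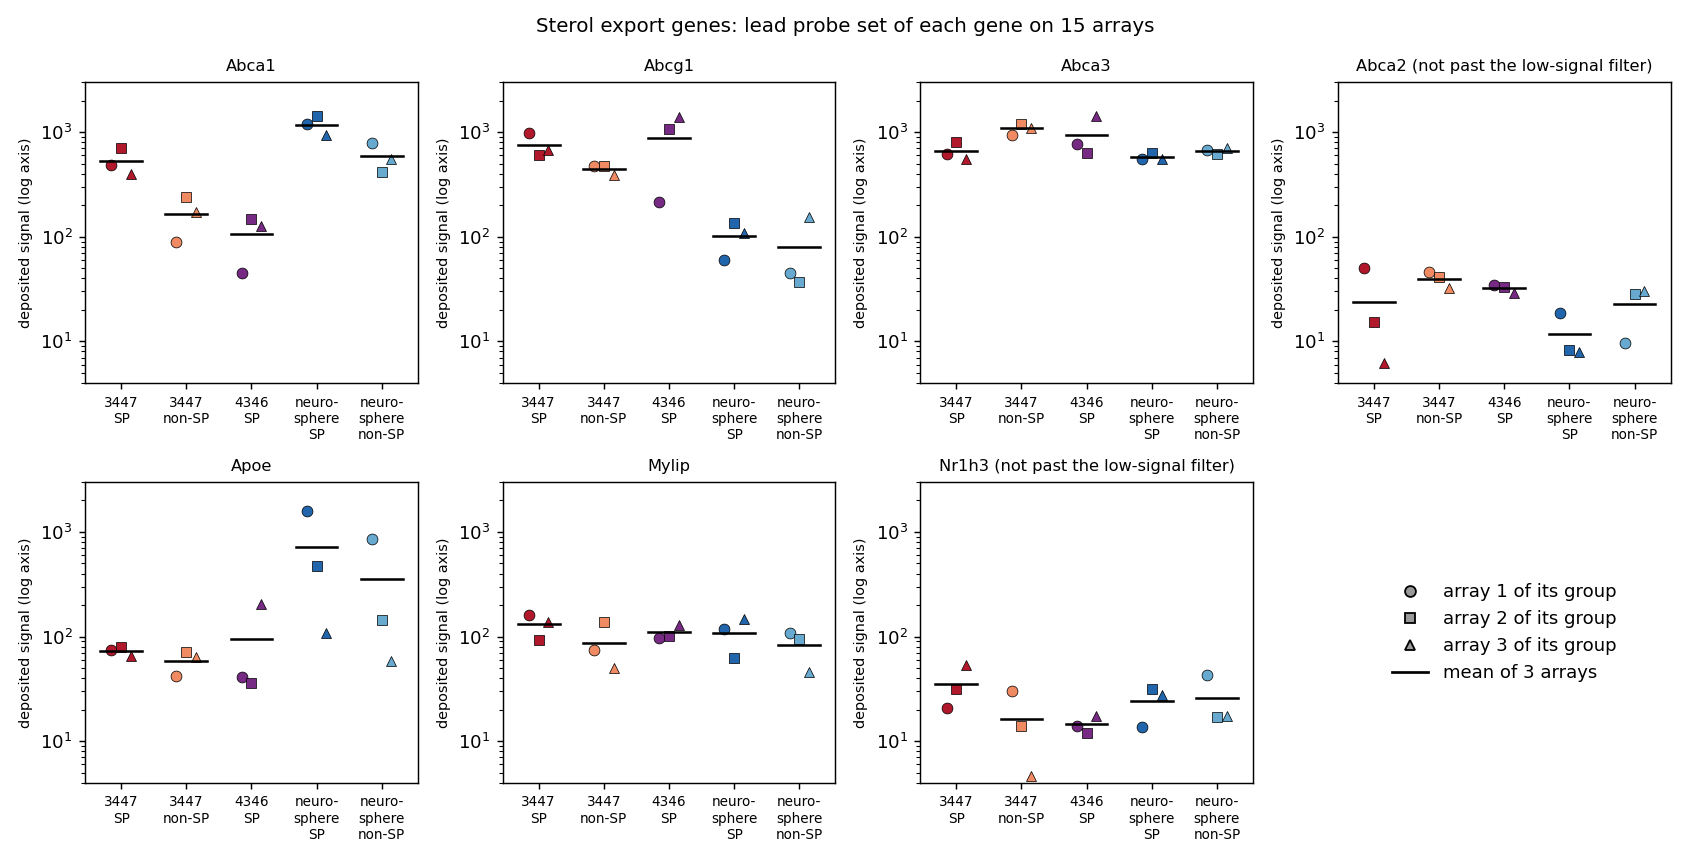
Deposited MAS5 signal (log axis) of the brightest probe set of each member gene in the 5 groups; symbols are arrays 1 to 3 of a group and bars are means of 3 arrays. Abca1 and Apoe are highest in neurosphere SP cells, at means of 1182 and 720.6, Abcg1 is highest in 4346 SP cells, at a mean of 890.1, and Abca2 and Nr1h3 stay at or below 52.9 on every array.

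Abcg1, which exports cholesterol to formed lipoprotein particles, ran the other way and was higher in tumour cells. Its brightest probe set, 1423570_at, had 972, 609 and 672 signal units in 3447 SP arrays. The 3447 non-SP arrays had 478, 481 and 387. The 4346 SP arrays spread widely, at 217, 1069.8 and 1384. The neurosphere SP arrays had 59.8, 136 and 109.8, and the neurosphere non-SP arrays 45.2, 37.3 and 155. Every tumour array lay above every neurosphere array, and array 1 of the 4346 SP, the lowest of the 9 at 217, came nearest to them. The order of mean signals was 4346 SP (890.1 ± 604), 3447 SP (751 ± 194), 3447 non-SP (448 ± 53.4), neurosphere SP (102 ± 38.6) and neurosphere non-SP (79.0 ± 65.5; SD, n = 3 each). Of neighbours in this order, 3447 SP and non-SP, and 3447 non-SP and neurosphere SP, did not overlap.

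Abcg1 was higher by 2.68 ± 0.56 in 3447 SP than in neurosphere SP cells (limma, adjusted p = 0.00351). In 4346 SP against neurosphere SP cells the difference was 2.62 ± 0.56 (adjusted p = 0.00350). In 3447 non-SP against neurosphere non-SP cells it was 2.53 ± 0.56 (adjusted p = 0.00521). All 3 calls held without each of the 15 arrays in turn, with adjusted p-values up to 0.0314, and under each other setting tried. Between the 3447 SP and 4346 SP cells the difference was 0.05 ± 0.56, with a 95% interval from -1.14 to 1.24, so a difference of over 1 log2 unit either way lay within the interval. The other Abcg1 probe set, 1455221_at, was below the array median on all 15 arrays, at 0.733 to 40.1, and was not tested.

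Abca3, which moves phospholipids and cholesterol into lamellar bodies of lung cells, was measured well above the array median on every array. Its brightest probe set, 1451731_at, had 613, 802 and 557 in 3447 SP arrays against 951, 1209.7 and 1102 in 3447 non-SP arrays, without overlap. The 4346 SP arrays had 775, 639 and 1421. The neurosphere SP arrays had 551, 633 and 552, and the neurosphere non-SP arrays 676, 624 and 701. Neurosphere arrays were thus the most alike, and the highest value, 1421, came from the 4346 SP array with the raised actin ratio. Among the groups the means ran 3447 non-SP (1087.5 ± 130.03), 4346 SP (945 ± 418), neurosphere non-SP (667 ± 39.3), 3447 SP (657 ± 128) and neurosphere SP (579 ± 47.0; SD, n = 3 each). Abca3 passed in none of the comparisons. It was nearest to the threshold in 3447 non-SP against neurosphere non-SP cells (0.68 ± 0.26, adjusted p = 0.0974), where the arrays did not overlap, and it passed there without array 3 of the 4346 SP (0.68, adjusted p = 0.0250). With array weights it passed there as well (0.65, adjusted p = 0.0359). The second tested Abca3 probe set, 1425496_at, was dim. It had 45.8, 46.4 and 18.6 in 3447 SP arrays, 88.8, 73.2 and 74.7 in 3447 non-SP arrays and 54.8, 37.7 and 34.3 in 4346 SP arrays. Its neurosphere SP arrays had 40.3, 33.1 and 70.2, and the neurosphere non-SP arrays 46.4, 84.3 and 46.0. It passed in none of the comparisons either. The remaining Abca3 probe set, 1451869_at, ran from 9.44 to 60.1 and was not tested.

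Abca2, a transporter of endosomes and lysosomes that is prominent in oligodendrocytes, was dim. Its probe set had 49.9, 15.3 and 6.20 in 3447 SP arrays, 45.8, 41.6 and 32.1 in 3447 non-SP arrays and 34.5, 33.0 and 29.0 in 4346 SP arrays. Neurosphere SP arrays had 18.8, 8.32 and 7.97, and the neurosphere non-SP arrays 9.74, 28.6 and 30.01. Every 3447 non-SP array lay above every neurosphere array of either kind. It was above the array median on 1 array and was not tested.

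Markers of the oligodendrocyte lineage, where Abca2 is prominent, differed between tumour and neurosphere cells. Of 7 progenitor markers tested, 5 were higher and 2 lower in 3447 SP, 5 higher and 1 lower in 4346 SP, and 4 higher and 0 lower in 3447 non-SP than in neurosphere cells. The shares over all probe sets were 8.01% higher and 7.17% lower, 10.2% and 9.64%, and 8.16% and 7.00%. The lower gene in 4346 SP cells, Olig2, no longer passed without array 3 of the 4346 SP (adjusted p = 0.107). Without that array Olig2 did pass as lower in 3447 non-SP than in neurosphere non-SP cells (-0.76, adjusted p = 0.0191). Sox10, the transcription factor of the lineage, had 2602 to 3607 in 3447 SP, 3067 to 4922 in 3447 non-SP and 3433 to 8730.1 in 4346 SP arrays, against 0.819 to 1.67 in neurosphere SP and 1.401 to 20.7 in neurosphere non-SP arrays. The summed signal of the 7 was 12374 to 17397 in 3447 SP, 19257 to 22190.1 in 3447 non-SP and 19375 to 24523 in 4346 SP arrays, against 7087 to 12805 in neurosphere SP and 9468 to 13470 in neurosphere non-SP arrays. Of the 5 markers of mature oligodendrocytes with a probe set, 2 were tested. Mbp, a myelin protein, was higher in all 3 comparisons (8.22, 8.20 and 7.74 on the log2 scale) and Cnp in those of the 4346 SP and 3447 non-SP. Without array 3 of both tumour SP groups the Cnp call in 4346 SP cells was lost (adjusted p = 0.0606). Of these 5, 2 lay above the array median on tumour and 1 on neurosphere arrays. Of the 7 progenitor markers, 7 did on tumour and 5 to 6 on neurosphere arrays. Sox10, at least, passed the low-signal filter through tumour arrays only, which favours higher values there. Nothing is read from the counts of these lists. The part of this lineage in the Abcg1 and Abca1 differences was not tested, and Abca2 itself was too dim to be tested.

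Apoe, the apolipoprotein that takes up exported cholesterol, was low in tumour cells and differed greatly between neurosphere cultures. The 3447 SP arrays had 74.8, 79.5 and 65.4 signal units. The 3447 non-SP arrays had 41.9, 70.8 and 63.9, and the 4346 SP arrays 40.9, 35.8 and 207. The neurosphere SP arrays had 1576, 477 and 109, a 14.4-fold range, and the neurosphere non-SP arrays 853, 144 and 59.0, a 14.5-fold range. Both neurosphere groups thus ran in the same order by replicate number, and array 3 of each lay near the tumour arrays. Neurosphere SP arrays lay above all 3447 SP arrays but overlapped those of the 4346 SP, through its array 3 at 207. The means were 720.6 ± 763 in neurosphere SP, 352 ± 436 in neurosphere non-SP, 94.5 ± 97.3 in 4346 SP, 73.2 ± 7.20 in 3447 SP and 58.9 ± 15.1 in 3447 non-SP (SD, n = 3 each), and no neighbours in this order were free of overlap.

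Apoe fell by 2.66 ± 0.83 in 3447 SP against neurosphere SP cells (limma, adjusted p = 0.0389). The call was lost in 7 of 15 leave-outs, those of arrays 1, 2 and 3 of the 3447 SP, 2 and 3 of the 3447 non-SP and 1 and 2 of the neurosphere SP. Without array 1 of the neurosphere SP the difference was -1.77 (adjusted p = 0.199), and without array 3 of the 3447 SP it was -2.37 (adjusted p = 0.132). The call was also lost in 4 of 12 other settings. These were no normalization between arrays (adjusted p = 0.0684), no filter (adjusted p = 0.0601), no trend of spread on level (adjusted p = 0.0706), and leaving out array 3 of both the 3447 SP and the 4346 SP (adjusted p = 0.109). The difference was -2.23 ± 0.83 in 4346 SP against neurosphere SP cells (adjusted p = 0.0687), and it passed without array 3 of the 4346 SP (-2.84, adjusted p = 0.0450), array 3 of the neurosphere SP (-3.18, adjusted p = 0.0114) or array 1 of the neurosphere non-SP (adjusted p = 0.0340). It was -1.43 ± 0.83 in 3447 non-SP against neurosphere non-SP cells (adjusted p = 0.286). The size of the Apoe difference thus moved with the neurosphere cultures in the comparison.

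Astrocyte markers moved with these groups too, mostly downwards in tumour cells. Of 12 astrocyte markers tested, 1 was higher and 7 were lower in 3447 SP than in neurosphere SP cells, among them Mlc1 at -7.12, Slc4a4 at -6.74 and Gja1 at -5.80 on the log2 scale. In 4346 SP against neurosphere SP cells 1 was higher and 5 were lower, and in 3447 non-SP against neurosphere non-SP cells 2 were higher and 6 lower. Across all probe sets the shares in these 3 comparisons were 8.01% higher and 7.17% lower, 10.2% and 9.64%, and 8.16% and 7.00%. Of the 12, 6 to 9 lay above the array median on tumour arrays and 10 to 12 on neurosphere arrays. Some may thus have passed the low-signal filter through neurosphere arrays only, which favours lower values in tumour cells. The summed signal of the 12 was 16953 to 20987 in 3447 SP, 17014 to 20517 in 3447 non-SP, 22114 to 24827 in 4346 SP, 35814 to 59312 in neurosphere SP and 33787 to 40779 in neurosphere non-SP arrays. S100b, whose promoter drives the transgene, was higher in tumour SP cells, by 4.09 in line 3447 and 3.91 in line 4346. In sorted populations of mixed cells, fewer cells of a type and less RNA per cell cannot be told apart. The part of astrocyte-like cells in the Apoe and Abca1 differences was not tested.

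Microglia and macrophages, which also export sterols, were represented by 12 markers, of which 0 to 2 lay above the array median on any array. Their summed signal was 222 to 416 in 3447 SP, 152 to 295 in 3447 non-SP, 316 to 757 in 4346 SP, 309 to 716 in neurosphere SP and 239.6 to 384 in neurosphere non-SP arrays. The defining markers Aif1 (0.753 to 12.3), C1qa (0.722 to 7.89) and Trem2 (2.40 to 18.4) were near 0 on all 15 arrays. Of the 3 that were tested, Laptm5, a lysosomal protein of blood cells, was higher in 4346 SP than in neurosphere SP cells (1.46 ± 0.44, adjusted p = 0.0282), with 317 on array 3 of the 4346 SP, and the call was lost without that array (0.91, adjusted p = 0.152). Cd68, a lysosomal protein of macrophages, had 447, 115 and 132 in neurosphere SP and 188, 83.01 and 40.3 in neurosphere non-SP arrays, highest on the arrays where Apoe was highest. Its part in the spread of Apoe was not tested.

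Nr1h3, which encodes LXR alpha, was below the array median on all 15 arrays and was not tested. Its signals were 20.8, 31.4 and 52.9 in 3447 SP arrays, 30.1, 13.95 and 4.62 in 3447 non-SP arrays and 13.9, 12.02 and 17.4 in 4346 SP arrays. In neurosphere SP arrays it had 13.6, 31.4 and 27.5, and the neurosphere non-SP arrays 42.7, 17.1 and 17.5. The deposited signals of the 3447 SP lay above those of the 4346 SP, but the normalized values of these groups overlapped, as did those of every other pair compared. At signals this low a difference of the receptor's own transcript was not detectable.

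Mylip, an LXR target in other cells that encodes a ubiquitin ligase for lipoprotein receptors, was above the array median on every array but did not differ between groups by the test. It had 161, 92.8 and 139 in 3447 SP arrays, 73.6, 136 and 50.5 in 3447 non-SP arrays and 97.4, 102 and 129.9 in 4346 SP arrays. Neurosphere SP arrays had 118, 61.7 and 148, and the neurosphere non-SP arrays 109, 95.3 and 45.7. The 95% intervals of its differences from neurospheres were -0.63 to 0.84 for 3447 SP, -0.61 to 0.86 for 4346 SP and -0.58 to 0.89 for 3447 non-SP on the log2 scale.

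Over the 7 tested probe sets, 1 was higher (Abcg1) in 3447 SP than in neurosphere SP cells, where 8.01% of all probe sets were, and 2 were lower (Abca1 and Apoe), where 7.17% were. In 4346 SP against neurosphere SP cells 1 was higher (Abcg1) and 1 lower (Abca1), against 10.2% and 9.64% of all probe sets. In 3447 non-SP against neurosphere non-SP cells 1 was higher (Abcg1) and 1 lower (Abca1), against 8.16% and 7.00%. The first 2 of these comparisons share the neurosphere SP arrays and are not independent. In 3447 SP against 4346 SP cells 1 was higher (Abca1) and 0 were lower by limma, against 0.434% and 0.769%. By normalized values, the arrays of 1 member probe set lay wholly above and those of 2 wholly below in 3447 SP against neurosphere SP cells, against 15.6% and 16.7% of all probe sets. The next 3 counts are of normalized values too. In 4346 SP against neurosphere SP cells 1 lay above and 2 below, against 15.6% and 19.3%. In 3447 non-SP against neurosphere non-SP cells 3 lay above and 1 below, against 17.6% and 17.4%. For 1 of the 3, Abca3 1425496_at, the deposited signals overlapped. In 3447 SP against 4346 SP cells 1 lay above and 0 below, against 10.4% and 8.43%. The median difference of the 7 was -0.44 for 3447 SP, 0.06 for 4346 SP and 0.16 for 3447 non-SP cells, against -0.04, -0.07 and -0.02 over all probe sets tested. Nothing is read from these counts, because the levels were known when the members were chosen.

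**Figure D2:**
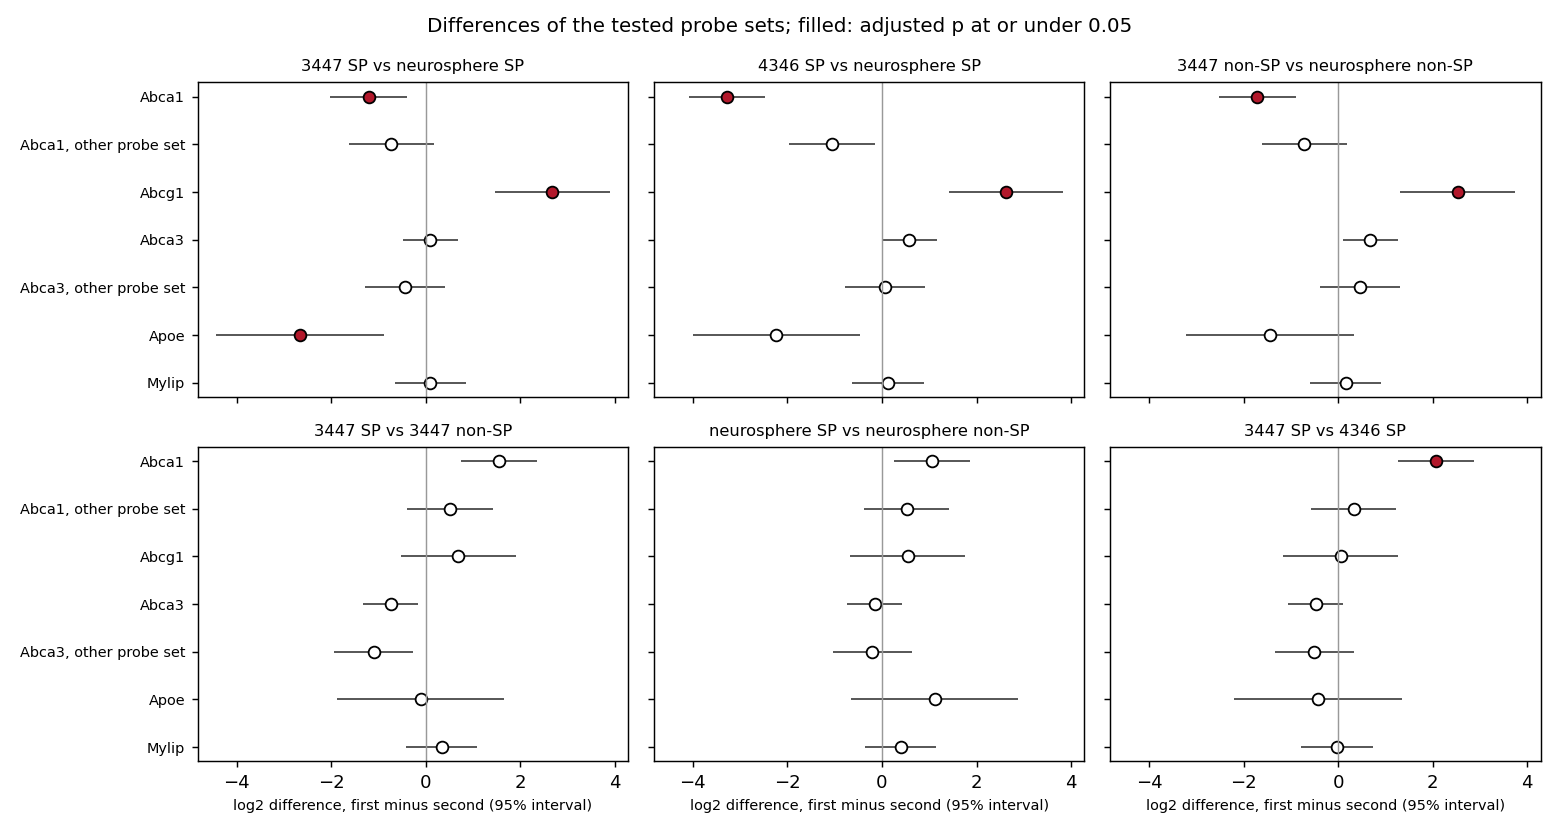
Log2 differences of the 7 tested member probe sets (x axis, first-named group minus second-named, with 95% intervals) in 6 comparisons; filled points passed at an adjusted p of 0.05. Abcg1 lies right of 0 at 2.68, 2.62 and 2.53 and Abca1 left of 0 at -1.21, -3.28 and -1.70 in the upper row, and no point is filled in the comparisons of SP with non-SP cells.

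Abca1 signals were higher in SP than in non-SP cells of both origins, but no member passed the test between sorted populations of an origin. In 3447 SP against 3447 non-SP cells 0 of the 7 member probe sets were higher or lower by limma, where 0.00381% of all were higher and 0% lower. Without adjustment, 3 of them had p-values under 0.05, as did 1817 of the 26256 probe sets. In neurosphere SP against neurosphere non-SP cells 0 passed by limma, where 0.00762% of all were higher and 0.00381% lower. Without adjustment, 1 had a p-value under 0.05, as did 1134 of the 26256. Abca1 was the member with the smallest p in both. Its 3447 SP arrays (395 to 705) lay above the 3447 non-SP arrays (89.7 to 238), with a log2 difference of 1.55 ± 0.37 (adjusted p = 0.294). Its neurosphere SP arrays (931 to 1426) lay above the neurosphere non-SP arrays (417 to 792), with a difference of 1.06 ± 0.37 (adjusted p = 0.9998). By normalized values, in line 3447 the SP arrays of 2 member probe sets lay above and those of 2 below the non-SP arrays, against 7.59% and 8.40% of all probe sets. In neurospheres those of 1 lay above and 0 below, against 3.87% and 5.17%. The difference between the 2 Abca1 effects was 0.50 ± 0.53 (95% interval -0.62 to 1.61), and 0 of 7 members and 0% of all probe sets passed in that comparison by limma, with 0 members and 653 probe sets at an unadjusted p under 0.05.

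An average of the SP effect over line 3447 and neurospheres was added after the data had been seen. Abca1 had an averaged difference of 1.304 ± 0.263 (limma, adjusted p = 0.0940), and 0 of 7 members passed, where 0.0229% of all probe sets were higher and 0% lower. Without adjustment, 3 members and 2402 of the 26256 probe sets had p-values under 0.05. Equal replicate numbers paired the SP and non-SP arrays of the neurospheres, whose deviations from the group means correlated at 0.484, 0.454 and 0.504. With the neurosphere number as a replicate block, Abca1 passed (adjusted p = 0.0476), as it did with a random block (adjusted p = 0.0257), while it did not with a block in both origins (adjusted p = 0.0822). That last block joined 3447 arrays of equal number, whose deviations correlated at -0.265, -0.258 and -0.158. The neurosphere pairs had 1.503, 3.42 and 1.67 times as much Abca1 signal in SP as in non-SP cells. The neurosphere difference alone passed in none of 14 other settings, the replicate blocks among them (limma, adjusted p of 0.0982 or more). Equal numbers of line 3447 did not pair the arrays by that check, and no ratio by number is given for them. A pairing of its arrays by unequal numbers was not tested.

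Abcg1 and Abca3 had SP and non-SP arrays that did not overlap in line 3447 and did in neurospheres, and the difference between the origins passed for neither. Abcg1 had 609 to 972 in 3447 SP against 387 to 481 in 3447 non-SP arrays, a difference of 0.69 ± 0.56 (adjusted p = 0.858), while in neurospheres the SP and non-SP arrays overlapped (0.54 ± 0.56). Both tested Abca3 probe sets were lower in every 3447 SP array than in every 3447 non-SP array, with differences of -0.73 ± 0.26 for 1451731_at (adjusted p = 0.640) and -1.10 ± 0.39 for 1425496_at (adjusted p = 0.624). In neurospheres the Abca3 differences were -0.15 ± 0.26 and -0.20 ± 0.39. The tests of 3447 minus neurosphere effects gave 0.15 ± 0.80 for Abcg1 and -0.58 ± 0.37 for the brighter Abca3 probe set, both at an adjusted p of 0.9996. Apoe was higher in the SP than in the non-SP array of each neurosphere pair, by 1.85, 3.31 and 1.85 times. Its fitted difference there, in the main model that leaves the pairs out, was 1.11 ± 0.83 (adjusted p = 0.9998), and in line 3447 it was -0.11 ± 0.83. In neurospheres it passed in none of 14 other settings, the replicate blocks among them (limma, adjusted p of 0.348 or more).

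**Figure D3:**
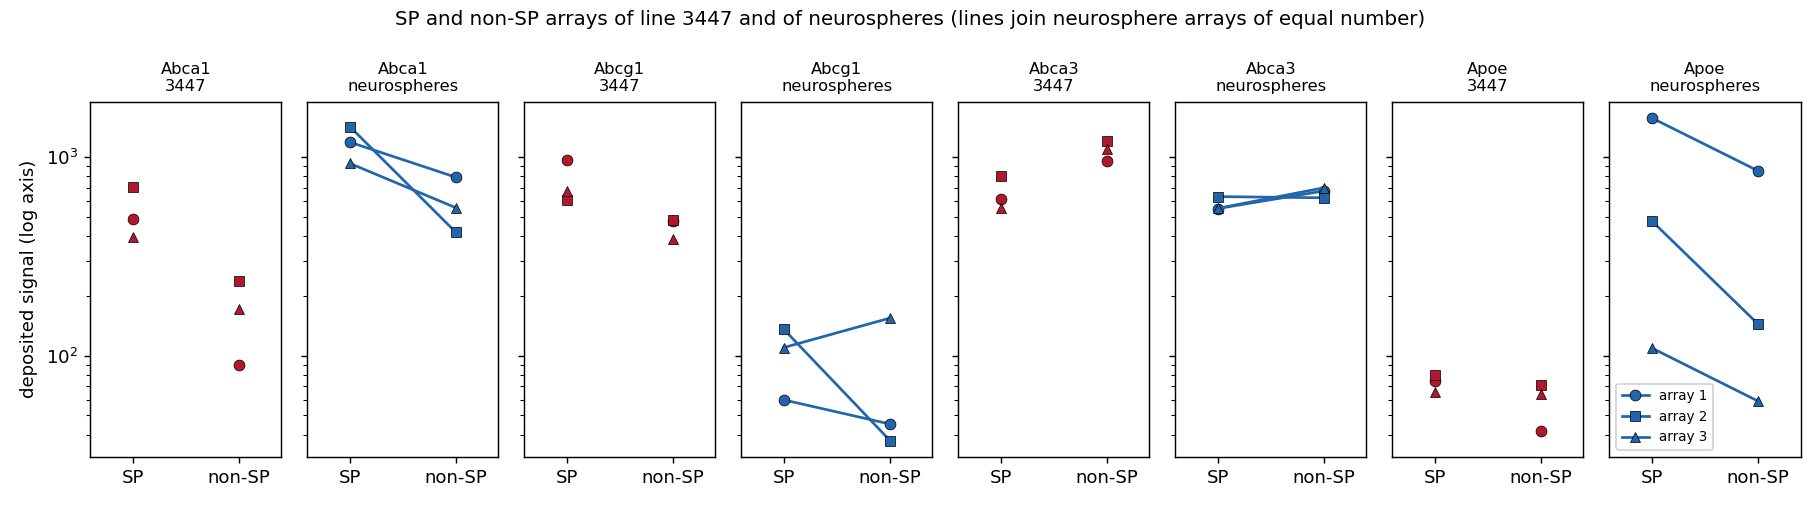
Deposited signal (log axis) of the brightest Abca1, Abcg1, Abca3 and Apoe probe sets in SP and non-SP arrays of line 3447 (red) and of neurospheres (blue). Symbols are array numbers, and lines join neurosphere arrays of equal number, which pair. Equal numbers did not pair the arrays of line 3447, and a pairing by unequal numbers was not tested. Abca1 falls along all 3 neurosphere lines (ratios 1.503, 3.42 and 1.67), and the 3 Apoe lines run nearly parallel at very different heights (1576 to 109 in SP arrays).

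The other genes of sterol traffic were taken from 8 lists that name 72 genes; 63 are on the array and 46 passed the filter. In 3447 SP against neurosphere SP cells 7 were higher and 5 lower, where 8.01% and 7.17% of all probe sets were. In 4346 SP against neurosphere SP cells 11 were higher and 2 lower (10.2% and 9.64% of all), and in 3447 non-SP against neurosphere non-SP cells 4 were higher and 2 lower (8.16% and 7.00%). In 3447 SP against 4346 SP cells 0 were higher and 3 lower (0.434% and 0.769%). Without array 3 of the 3447 SP, 5 of the 12 calls of 3447 SP against neurosphere SP cells were lost, and without array 3 of the 4346 SP 2 of the 13 calls of 4346 SP cells were lost and 2 were gained. In the comparisons of SP with non-SP cells 0 of 46 passed by limma in line 3447 and 0 in neurospheres. At an unadjusted p under 0.05 there were 3 in each, against 1817 and 1134 of all 26256 probe sets. The lists were written with earlier results of these data known. Among the higher genes, Abca9 and Abca13 passed the low-signal filter through tumour arrays only, and nothing is read from these counts.

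Among partners of LXR, Rxra, the retinoid X receptor alpha, was higher in all 3 comparisons with neurospheres. It had 1196, 1554 and 1373 in 3447 SP, 1172, 995 and 1473 in 3447 non-SP and 1337, 1153 and 1444 in 4346 SP arrays. The neurosphere SP arrays had 556, 489 and 613 and the neurosphere non-SP arrays 434, 512 and 651, so that tumour and neurosphere arrays did not overlap. The differences were 1.24 ± 0.23 for 3447 SP, 1.18 ± 0.23 for 4346 SP and 1.17 ± 0.23 for 3447 non-SP cells (limma, adjusted p = 0.00117, 0.00158 and 0.00182). Rxrb, the other partner tested of the 5 listed, passed in none.

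Of 8 tested LXR targets of 14 listed, genes ran both ways, as Abca1 and Abcg1 did. Srebf1, the LXR target that drives fatty acid synthesis, had 1136, 1140.4 and 1149.6 in 3447 SP, 1074, 1612 and 960.1 in 3447 non-SP and 1286, 972 and 1951 in 4346 SP arrays. It had 290.0, 606 and 209.9 in neurosphere SP and 162, 378 and 241 in neurosphere non-SP arrays, again without overlap. Its differences were 1.69 ± 0.37 for 3447 SP, 1.92 ± 0.37 for 4346 SP and 2.19 ± 0.37 for 3447 non-SP cells (adjusted p up to 0.00458). Lpl, the lipase that releases fatty acids from lipoproteins, was lower, at 24.1 to 129 in 3447 SP, 48.0 to 110.5 in 3447 non-SP and 97.8 to 391 in 4346 SP arrays, against 716 to 2462 in neurosphere SP and 788 to 2170.3 in neurosphere non-SP arrays. Its differences were -4.02 ± 0.52 for 3447 SP, -2.86 ± 0.52 for 4346 SP and -3.45 ± 0.52 for 3447 non-SP cells (adjusted p up to 0.00105). Pltp, which transfers phospholipids between lipoproteins, was lower in 3447 SP cells alone among the calls (-1.73 ± 0.44, adjusted p = 0.0137), and was -1.22 ± 0.44 in 4346 SP cells (adjusted p = 0.0637). Without array 3 of the 3447 SP the first was lost (-1.42, adjusted p = 0.0750), and without array 3 of the 4346 SP the second passed (-1.89, adjusted p = 0.00131). The lipogenic targets Scd1 and Fasn did not pass in any of the 3 comparisons with neurospheres.

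Of 7 tested transporters among 13 other ABCA and ABCG genes and Scarb1, 3 were higher in 3447 SP, 3 in 4346 SP and 1 in 3447 non-SP cells than in neurosphere cells, and 0 were lower by limma. The median difference over the 7 was 1.70, 1.41 and 1.12, against -0.03, 0.02 and 0.04 over all lead probe sets tested. Among the 7, Abca8a, Abca8b, Abca9 and Abca13 stayed at or below 34.5 on every neurosphere array, under the medians of those arrays. They passed the low-signal filter through tumour arrays only, which favours higher values in tumour cells. Nothing is therefore read from the calls of these genes, or from the counts or the median of this list. Abca13, a large transporter of cholesterol-bearing vesicles, had 289, 159 and 242 in 3447 SP, 121, 190.3 and 73.3 in 3447 non-SP and 256, 376 and 257 in 4346 SP arrays. It was at 3.78, 28.8 and 31.6 in neurosphere SP and 17.8, 31.5 and 7.26 in neurosphere non-SP arrays. Its differences were 2.75 ± 0.38 for 3447 SP, 3.21 ± 0.38 for 4346 SP and 2.12 ± 0.38 for 3447 non-SP cells (adjusted p up to 0.000883). Abca9 was higher in 3447 SP (2.66 ± 0.50, adjusted p = 0.00142) and 4346 SP cells (1.61 ± 0.50, adjusted p = 0.0319), and Abca5, a lysosomal transporter, in 3447 SP cells (1.70 ± 0.52, adjusted p = 0.0355). Scarb1, a receptor that takes cholesterol from high-density lipoprotein, was higher in 4346 SP cells (1.27 ± 0.41, adjusted p = 0.0381). The call of Abca5 was lost without array 3 of the 3447 SP (adjusted p = 0.138), and those of Abca9 and Scarb1 in 4346 SP cells without array 3 of the 4346 SP (adjusted p = 0.118 and 0.0864). Without this last array Abca8a passed in 3447 SP cells (1.82, adjusted p = 0.0481).

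The 5 tested lipoprotein receptors and partners of 8 listed, among them Vldlr and Lrp8 that Mylip marks for degradation, gave 0 calls by limma in any comparison. At an unadjusted p under 0.05 there were 0 for 3447 SP, 2 for 4346 SP and 0 for 3447 non-SP cells against neurosphere cells. Vldlr had 3857 to 6724 in 3447 SP against 5217 to 7677 in neurosphere SP arrays. Of the 5 apolipoproteins and lipoprotein enzymes tested of 9, Lcat, which esterifies cholesterol on lipoproteins, was higher in 3447 SP than in neurosphere SP cells (0.92 ± 0.30, adjusted p = 0.0444), a call lost without array 3 of the 3447 SP (adjusted p = 0.0973). Apod, a carrier of small lipids, was higher in 4346 SP (1.76 ± 0.48, adjusted p = 0.0156) and 3447 non-SP cells (1.56 ± 0.48, adjusted p = 0.0362). Clu, the other abundant apolipoprotein of astrocytes, did not pass. Like Apoe, it was uneven among neurosphere cultures, with 3729, 916 and 1435 in neurosphere SP arrays, and it had 5010.3 on array 3 of the 4346 SP against 403 and 428 on the other two. Without that array Clu was lower in 4346 SP (-1.99, adjusted p = 0.0169) and 3447 SP cells (-1.76, adjusted p = 0.0159).

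Inside the cell, Npc1, which lets cholesterol out of lysosomes, was lower in 3447 SP (-1.06 ± 0.23, adjusted p = 0.00427) and 4346 SP cells (-1.15 ± 0.23, adjusted p = 0.00199) than in neurosphere SP cells. Cav1, a cholesterol-binding coat protein of caveolae, was higher in 3447 SP (1.41 ± 0.32, adjusted p = 0.00574) and most of all in 4346 SP cells (4.42 ± 0.32, adjusted p = 7.10e-08). Its signals were 523, 398 and 341 in 3447 SP and 3979, 3874 and 2556 in 4346 SP arrays, against 91.2, 216 and 126 in neurosphere SP arrays. The 2 tumour lines therefore stood apart in Cav1 as in Abca1, with the sign turned (3447 SP minus 4346 SP, -3.01 ± 0.32, adjusted p = 5.49e-05). Lipa, the lysosomal lipase that frees stored cholesterol, was lower in 3447 SP than in 4346 SP cells (-1.52 ± 0.31, adjusted p = 0.0233), and so was Cyp7b1, which breaks down oxysterols (-2.44 ± 0.40, adjusted p = 0.00426). The Lipa call was lost without either array 3 (adjusted p = 0.0963 without that of the 3447 SP and 0.111 without that of the 4346 SP), and the Cyp7b1 call without both (-1.86, adjusted p = 0.0949). In all, 11 of 15 genes of sterol movement and storage and 4 of 8 of oxysterol metabolism were tested. Cyp7b1 had 170, 108 and 88.4 in 3447 SP and 617, 433 and 794 in 4346 SP arrays.

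Cyp46a1, which makes the brain oxysterol 24-hydroxycholesterol, was lower in 3447 SP than in neurosphere SP cells (-1.87 ± 0.57, adjusted p = 0.0335), at 1.93 to 6.38 against 24.8 to 96.4 signal units. The call was lost without array 3 of the 3447 SP (adjusted p = 0.0838). Cyp46a1 passed the low-signal filter through neurosphere arrays, which favours lower values in tumour cells. Of the 6 genes on the list of control of the transcription factor SREBP, Scap, its escort protein, was lower in 3447 SP (-0.71 ± 0.21, adjusted p = 0.0268) and 3447 non-SP cells (-0.73 ± 0.21, adjusted p = 0.0224). The first of these calls was lost without array 3 of the 3447 SP (adjusted p = 0.102). Srebf2, the main driver of cholesterol synthesis, was higher in 4346 SP cells (0.59 ± 0.15, adjusted p = 0.0124), as was its protease Mbtps1 (1.18 ± 0.29, adjusted p = 0.00787), which had 4407 on array 3 of the 4346 SP against 1868 and 1801 on the others. Without that array the Mbtps1 difference was 0.76 ± 0.21 (adjusted p = 0.0248), and Mbtps1 then also passed in 3447 non-SP cells (0.69, adjusted p = 0.0193). Insig1 did not pass in any of the 3 comparisons with neurospheres.

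**Figure D4:**
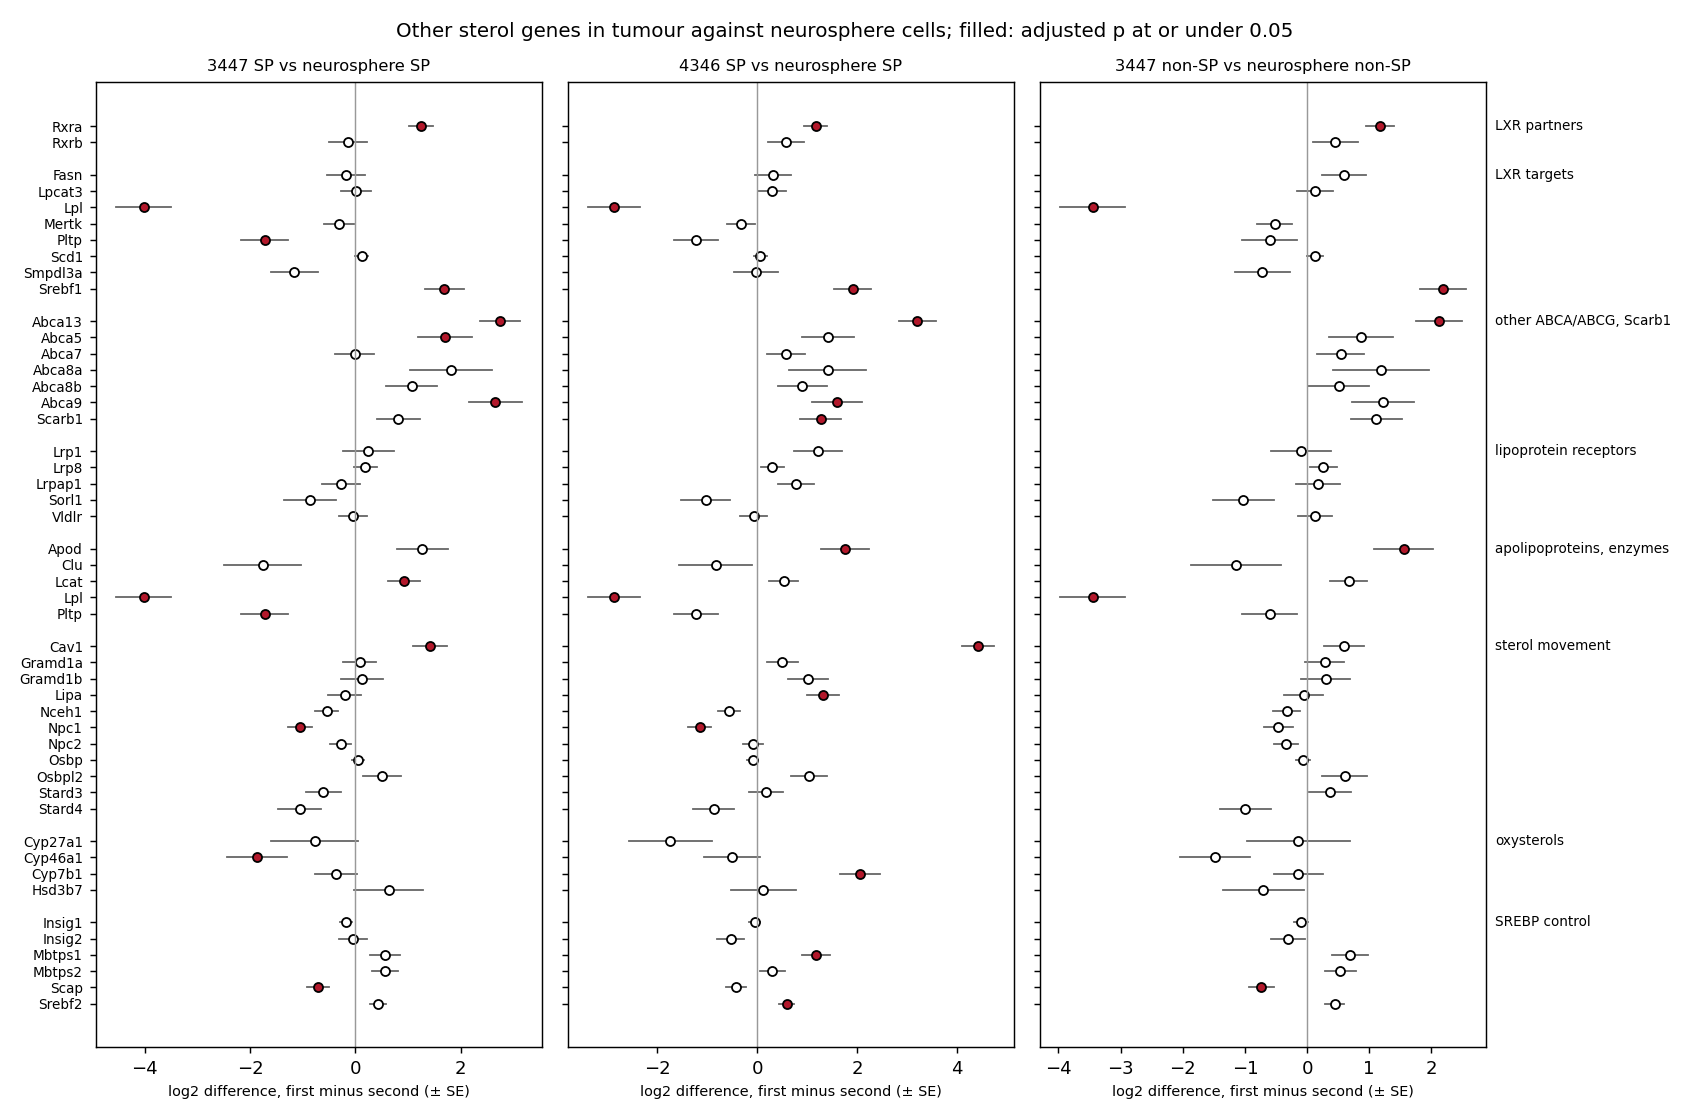
Log2 differences (x axis, first-named group minus second-named, ± SE) of the 46 tested genes of sterol traffic in the 3 comparisons with neurospheres, grouped by list; filled points passed at an adjusted p of 0.05, and Lpl and Pltp stand on 2 lists. Rxra, Srebf1 and Abca13 lie right of 0 and Lpl left of 0 in all 3 panels, and Cav1 reaches 4.42 in 4346 SP cells. Abca13 passed the low-signal filter through tumour arrays only, which favours a place right of 0.

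Profiles of other genes were set beside those of Abca1, Abcg1 and Apoe by the root mean square difference of log2 values over the 15 arrays, each profile centred on its own mean, among 11359 candidate genes. Nearest to Abca1 were Ptchd1 (0.54), a Patched-domain membrane protein, Zfp799 (0.61) and Ell2 (0.64), an elongation factor of RNA polymerase II, against a median of 1.34 over all candidates. Ptchd1 averaged 253 ± 87.0 in 3447 SP, 70.8 ± 42.5 in 3447 non-SP, 60.6 ± 18.4 in 4346 SP, 446 ± 245 in neurosphere SP and 249.5 ± 90.8 in neurosphere non-SP arrays (SD, n = 3 each), the same order of SP above non-SP within each origin as Abca1. Nearest to Abcg1 were Extl1, Shisa2 and Mlkl, all at 0.53, against a median of 1.56. Shisa2, a regulator of Wnt and fibroblast growth factor receptors, averaged 7676 ± 1419 in 3447 SP, 3614 ± 1109.8 in 3447 non-SP, 4898 ± 2517 in 4346 SP, 959 ± 283 in neurosphere SP and 895 ± 241 in neurosphere non-SP arrays. Nearest to Apoe were the chemokine Ccl7 (0.62), the interferon-inducible Ifi204 (0.65) and the growth factor receptor Met (0.66). Met averaged 268 ± 158 in 3447 SP, 126 ± 41.9 in 3447 non-SP, 209.8 ± 75.5 in 4346 SP, 1075 ± 1181 in neurosphere SP and 413 ± 528 in neurosphere non-SP arrays. The 15 points share the 5 groups and the neurosphere cultures, so these distances describe likeness of profile only.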

How the data were processed

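RNA of sorted cells was amplified with an Ovation Pico kit of NuGEN before biotin labelling, per the labels' protocols. What the authors deposited is an intensity per probe set, the linear MAS5 signal of Affymetrix Expression Console, per the submitters' processing notes, which as used here give no version. Once the outer 2% at either end were trimmed off, the arrays averaged about 500, so the arrays had been scaled to a common mean. Probe sets were named from the platform annotation: 34945 carried 1 symbol, 932 several and 9160 none, and 64 controls of 45101 were left out.

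Array medians differed 2.23-fold, so signals were quantile-normalized, and log2 of the value plus 16 was taken. Probe sets above their own array's median on at least 3 arrays (26256) were fitted in limma 3.58.1 (R 4.3.3) with 5 group means, 10 residual degrees of freedom and a trend of spread on level. Tests were two-sided, with Benjamini-Hochberg adjustment over all 26256 at 0.05. The procedure was tested on simulated data. Signals are printed as deposited. A gene's lead probe set is that with the highest mean. For arrays, their number limits the precision.

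Members and lists were chosen with earlier results of these data known. The text names all members, up to 3 genes of each list and comparison with the smallest p (others only as values beside a result), and the 3 nearest profiles of Abca1, Abcg1 and Apoe. Markers named singly, such as Sox2, Nes, Prom1, Sox10, Mbp, S100b and Cd68, were picked from their lists after their values were seen. Deviations from the group means correlated at 0.484, 0.454 and 0.504 in neurosphere SP and non-SP arrays of equal number, which were taken as pairs, and at -0.265, -0.258 and -0.158 in line 3447, which were not. Arrays of unequal number in line 3447 correlated at -0.056 to 0.291. The highest were SP array 1 with non-SP array 2 (0.291), SP 2 with non-SP 3 (0.243) and SP 3 with non-SP 1 (0.19). A pairing by these numbers was not tested. Replicates are labelled biological. Alternatives were other normalizations, added constants, filters, probe set choices, array weights, replicate blocks and leaving out each array; list genes were refitted without the 2 arrays that stood apart, singly and together, after the data were seen. Promoter windows are RefSeq's (GRCm38.p6).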

Additional observations from a re-analysis of the deposited data

How the results depend on the processing

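Over the single probe sets and comparisons, 1499 recomputed values kept their side of the threshold, 24 lost the call, 13 gained it and 0 that were called changed sign. Of the 1499, 49 that did not pass had the other sign, all of them in 12 differences of at most 0.42 in size. The member probe sets called in 3447 SP against neurosphere SP cells numbered 3, and 1 with no normalization between arrays, with no filter, or without both array 3 of the 3447 SP and array 3 of the 4346 SP (added after the data were seen). With the mean of a gene's probe sets, which brings in dim ones, 1 in place of 2 was called in 3447 non-SP against neurosphere non-SP cells and 0 in place of 1 in 3447 SP against 4346 SP cells. Abca1 was the call lost in both. Leaving out 1 array at a time gave 1 to 3 calls for 3447 SP and 2 to 4 for 4346 SP against neurosphere SP, 2 to 3 for 3447 non-SP against neurosphere non-SP, and 0 to 1 for 3447 SP against 4346 SP cells. With a replicate block in neurosphere arrays, the averaged SP effect called 1 member in place of 0, and the block changed no other member's call. It was not fitted between origins, where it would leave out the spread between cultures, except as a random block (correlation 0.4972, added later), which also called Apoe in 4346 SP against neurosphere SP cells (adjusted p = 0.0378). All calls in SP against non-SP cells were few and unsteady: in line 3447 they numbered 1, and 0 to 38 over the settings (38 with array weights, 5 with the replicate block). In neurospheres they numbered 3, and 0 to 133 (11 with the replicate block, 133 with the random block). For the averaged effect they numbered 6, and 2 to 154 (89 with the replicate block, 25 with blocks in both origins, 154 with the random block). With 1 probe set a gene, fewer features were tested, and 2335, 2888, 2306 and 197 were called in 3447 SP, 4346 SP and 3447 non-SP against neurosphere cells and in 3447 SP against 4346 SP cells, where 3987, 5210, 3981 and 316 probe sets had been. With the mean of probe sets they were 2014, 2665, 2087 and 167. With only the groups compared, 3282 were called for 4346 SP against neurosphere SP and 163 for 3447 SP against 4346 SP cells, and 90 between the lines without both arrays named above. Signals near or below the array median limit Abca2, Nr1h3 and the dimmer probe sets.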
